A study of Mus musculus with 63 samples.

Results

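A set of 9 transcription factor genes of the primitive streak and early mesoderm, comprising Eomes, Msx1, Evx1, Cdx1, Cdx2, Gsc, Snai1, Gata2 and Lmo2, was followed in mouse embryonic stem cells kept in normal or low oxygen. The members were all probes that the array annotation assigns to these 9 genes, which gave 11 probes of 25697. Of these, 9 probes, 1 for each gene, passed the filter on low values and stood among 8740 genes tested. Expression was measured on Illumina BeadChip arrays in 63 cultures of 7 TT2 lines, a C57BL/6 x CBA background labelled male, grown in serum and leukaemia inhibitory factor. Of the lines, 2 were wild-type (WT1 and WT2), 2 lacked JMJD1a (gene Kdm3a, an eraser of methyl groups on histone H3 lysine 9), 2 lacked G9a (gene Ehmt2, a writer of such methyl groups), and 1 was G9a KO1 with G9a put back, here called reconstituted.

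Every line was plated at 3 densities, 2, 4 and 6 times 100000 cells per 6 cm plate, and 18 h later went to 1 of 3 exposures. These were normoxia (21% oxygen) for 24 h, normoxia for 20 h and then hypoxia (1% oxygen) for 4 h, or hypoxia for 24 h. A genotype and exposure thus had 6 cultures of 2 lines, or 3 cultures of the 1 reconstituted line, with a single culture at each density. The labels do not say whether a line is a single clone, and cultures of 1 line share their origin, so p-values within a line measure the spread between its cultures.

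The primitive streak is the site where epiblast cells leave the pluripotent state and become mesoderm and endoderm, driven by Nodal, Wnt, BMP and FGF signals. Eomes is a T-box factor that starts this programme in the embryo and also serves the trophectoderm. Evx1 and Cdx1 mark the posterior streak under Wnt and BMP signals, Gsc marks the anterior streak under Nodal, and Msx1 is a homeobox target of BMP. Snai1 represses E-cadherin as cells leave the epithelium, Cdx2 acts in trophectoderm and posterior mesoderm, and Gata2 and the LIM-only protein Lmo2 act together in the first blood progenitors.

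The promoters of the members whose values are described most are printed to show which short motifs lie next to their starts. Each sequence runs from 250 bases before to 50 bases after the annotated start in RefSeq, build GRCm38.p6, read 5′ to 3′ on the strand of the gene. Capitals mark matches on either strand to the hypoxia-inducible factor (HIF) core, ACGTG or GCGTG, or to the T-box motif AGGTGT, and no 2 matches overlap. Eomes lies on the plus strand at chr9:118477939-118478238, Msx1 on the minus strand at chr5:37824536-37824835, Evx1 on the plus strand at chr6:52313248-52313547 and Snai1 on the plus strand at chr2:167537945-167538244.
Eomes: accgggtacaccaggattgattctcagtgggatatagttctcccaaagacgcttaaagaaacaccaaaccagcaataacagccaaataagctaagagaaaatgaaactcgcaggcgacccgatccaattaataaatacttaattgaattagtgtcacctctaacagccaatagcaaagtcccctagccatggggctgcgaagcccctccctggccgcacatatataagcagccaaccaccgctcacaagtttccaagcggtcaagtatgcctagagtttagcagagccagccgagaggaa
Msx1: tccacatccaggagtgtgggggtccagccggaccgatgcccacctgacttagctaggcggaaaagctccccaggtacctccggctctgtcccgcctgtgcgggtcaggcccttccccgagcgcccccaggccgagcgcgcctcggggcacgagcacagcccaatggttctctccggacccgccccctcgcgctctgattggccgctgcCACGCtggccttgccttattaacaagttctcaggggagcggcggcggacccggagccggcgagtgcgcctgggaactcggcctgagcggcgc
Evx1: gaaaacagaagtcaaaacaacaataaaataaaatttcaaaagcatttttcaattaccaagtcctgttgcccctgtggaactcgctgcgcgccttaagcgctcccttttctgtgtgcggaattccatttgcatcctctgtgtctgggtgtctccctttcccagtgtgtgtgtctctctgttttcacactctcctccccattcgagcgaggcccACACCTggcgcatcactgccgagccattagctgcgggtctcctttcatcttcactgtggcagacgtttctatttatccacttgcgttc
Snai1: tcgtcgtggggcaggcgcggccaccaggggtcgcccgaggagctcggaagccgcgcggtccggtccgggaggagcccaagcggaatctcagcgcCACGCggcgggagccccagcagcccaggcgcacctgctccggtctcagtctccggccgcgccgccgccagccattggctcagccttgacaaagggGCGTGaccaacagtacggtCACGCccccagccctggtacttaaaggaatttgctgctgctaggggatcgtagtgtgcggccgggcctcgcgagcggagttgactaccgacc
Msx1 held 1 GCGTG match, Snai1 held 3 and Evx1 held 1 T-box match, while Eomes held none of these letters in this window. In the promoter table, 7 members were matched with 8 promoters, and Cdx1 and Lmo2 were not matched. Of the 8, 5 held either HIF core. Among all 32851 promoters of the same length, 43.8% held either HIF core, 19.6% held ACGTG, 32.4% held GCGTG and 13.7% held AGGTGT. No member promoter held the FOXH1 motif AATCCACA (0.855% of all promoters) or a TCF/LEF site, CTTTGAT or CTTTGAA (8.65%). A match is a string of letters and not a measured binding site.

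Values are log2 intensities after quantile normalization, with a floor of 4.32 that stands for the deposited lowest value of 20. All 9 members were dim: the highest deposited intensity was 277.6 for Eomes, against 41907 for the brightest probe on any array. Counted over 63 arrays, Gata2 was above the floor on 60, Snai1 on 59, Eomes on 58, Msx1 on 52, Cdx1 on 49, Evx1 on 48, Lmo2 on 40, Gsc on 18 and Cdx2 on 13. Gsc passed the filter only through the G9a knockout lines, and Cdx2 only through JMJD1a KO2 at 24 h and the reconstituted line at 4 h, so both had to differ between groups. A further Cdx1 probe was above the floor on 1 array and a further Snai1 probe on none, and neither was used.

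The summed intensity of an array was between 6974757 and 8408782. It shifted after each 8 arrays of the deposited order, and these runs are called array sets here, although no label names them. Array set accounted for 98.6% of the first principal component, which held 56.5% of the variance. Cell line accounted for 82.8% of the same component, and sets and lines largely coincide. The second component held 9.67% of the variance, and exposure accounted for 74.3% of it. The wild-type lines lay on sets 1 to 3, the JMJD1a knockouts on 3 to 5, the G9a knockouts on 5 to 7 and the reconstituted line on 7 and 8. No set held wild-type and knockout cultures of the same exposure, so set and genotype cannot be told apart. Kdm3a was at the floor in all 18 cultures labelled JMJD1a KO. The Ehmt2 probe was at 7.43 to 8.98 in G9a knockout and 8.45 to 9.77 in wild-type cultures, which overlap, and whether it lies in the deleted part is not given. Pou5f1, a core pluripotency factor, was at 11.63 or higher in all cultures. Sox2, another core factor, was not at 1 level in all lines. It was at 6.09 to 9.87 in WT1, 6.31 to 9.22 in WT2 and 7.62 to 11.60 in JMJD1a knockout cultures. In G9a knockout cultures it was at 11.36 to 12.23, and in reconstituted cultures at 10.77 to 12.12. The part of this difference in the members' values was not tested. WT2 stood apart from the other lines: its Y-linked gene Eif2s3y reached at most 5.52 and lay at the floor in 5 of 9 cultures, against 7.16 or more elsewhere, although all lines are labelled male. In WT2 the summed intensity above the floor of 8 listed fibroblast genes was 1961 to 3662, against 28.9 to 979.8 in the other lines. Of these genes Acta2 had the highest value on any array (11.81), against 7.23 for Thy1 and 6.65 for Col1a1. Col1a2 was above the floor on 1 array, and Col3a1, Postn, Lum and Dcn were at the floor on all 63. The sum therefore does not stand for the list as a whole. Because WT2 stood apart, wild-type results of several members are also given by line, while those of the gene lists are pooled over both lines. On 1 array, of G9a KO2 at 4 h and the lowest density, 9339 probes shared a value of 21.86 and were treated as at the floor.

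Eomes had the largest difference between hypoxia and normoxia of the 9 members and rose in all 4 genotypes at both times. In wild-type normoxia it was at the floor in 4 of 6 cultures (lowest 4.32, median 4.32, highest 4.61 log2 intensity). It reached 5.10, 6.48 and 7.64 (lowest, median and highest) after 4 h of hypoxia and 5.51, 7.05 and 7.30 after 24 h. No wild-type culture in hypoxia overlapped one in normoxia. The difference was 2.10 ± 0.21 at 4 h (log2 difference ± SE, adjusted p = 1.03e-10) and 2.40 ± 0.21 at 24 h (adjusted p = 1.51e-12), fitted with limma and adjusted over 8740 genes. In bulk RNA, more cells with Eomes and more Eomes RNA per cell cannot be told apart.

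The wild-type lines had their highest Eomes values at different times, a difference between lines that was not tested. WT1 normoxia cultures were at 4.32, 4.49 and 4.61, those at 4 h at 6.72, 7.30 and 7.64, and those at 24 h at 5.51, 7.01 and 7.08. All 3 WT2 normoxia cultures were at the floor, the 4 h cultures were at 5.10, 5.97 and 6.23, and the 24 h cultures at 6.79, 7.10 and 7.30. Eomes was thus higher at 4 h than at 24 h on average in WT1, and the reverse in WT2, where the rise was at least 2.28-fold at 4 h and at least 5.58-fold at 24 h. The 24 h cultures of each line were split over array sets. Within set 1 the WT1 means were 7.22 at 4 h and 7.05 at 24 h (2 cultures), a smaller gap. Within set 2 the WT2 values were 5.77 at 4 h and 6.79 at 24 h (1 culture). The line differences were 2.75 ± 0.30 and 1.45 ± 0.30 at 4 h and 2.06 ± 0.30 and 2.74 ± 0.30 at 24 h, for WT1 and WT2 in turn.

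In JMJD1a knockout cells Eomes was at 4.32, 4.69 and 4.96 in normoxia (lowest, median and highest of 6), at 6.42, 6.83 and 8.11 after 4 h and at 6.41, 7.28 and 7.95 after 24 h. G9a knockout cells started higher, at 5.48, 5.60 and 6.02, and reached 7.36, 7.54 and 7.74 at 4 h and 7.00, 7.26 and 7.65 at 24 h. Reconstituted cultures were at 5.29, 5.34 and 5.55 in normoxia, 7.59, 7.62 and 7.67 at 4 h and 6.83, 7.26 and 7.68 at 24 h. In each genotype the hypoxia cultures lay above all normoxia cultures at both times. At 4 h the rise was 2.32 ± 0.21 in JMJD1a knockout, 1.87 ± 0.21 in G9a knockout and 2.23 ± 0.30 in reconstituted cells. After 24 h these were 2.58 ± 0.21, 1.62 ± 0.21 and 1.86 ± 0.30, with adjusted p of 4e-06 or lower for the 3 genotypes at either time.

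Over the 12 groups, Eomes ordered first by exposure: all 8 hypoxia groups had higher means than the 4 normoxia groups. The reconstituted line at 4 h had the highest mean (7.63 ± 0.04, SD, n = 3) and wild-type normoxia the lowest (4.40 ± 0.12, SD, n = 6). Neighbouring hypoxia groups in this order overlapped and differed by no more than the larger of their SDs. The only neighbours whose ranges did not overlap were reconstituted normoxia (5.40 ± 0.14, SD, n = 3) and JMJD1a knockout normoxia (4.66 ± 0.29, SD, n = 6). Within single array sets, Eomes was higher at 4 h than in normoxia in 6 of 6 lines that could be compared, by 1.45 to 2.75, and at 24 h in 3 of 3, by 1.92 to 2.57.

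**Figure D1:**
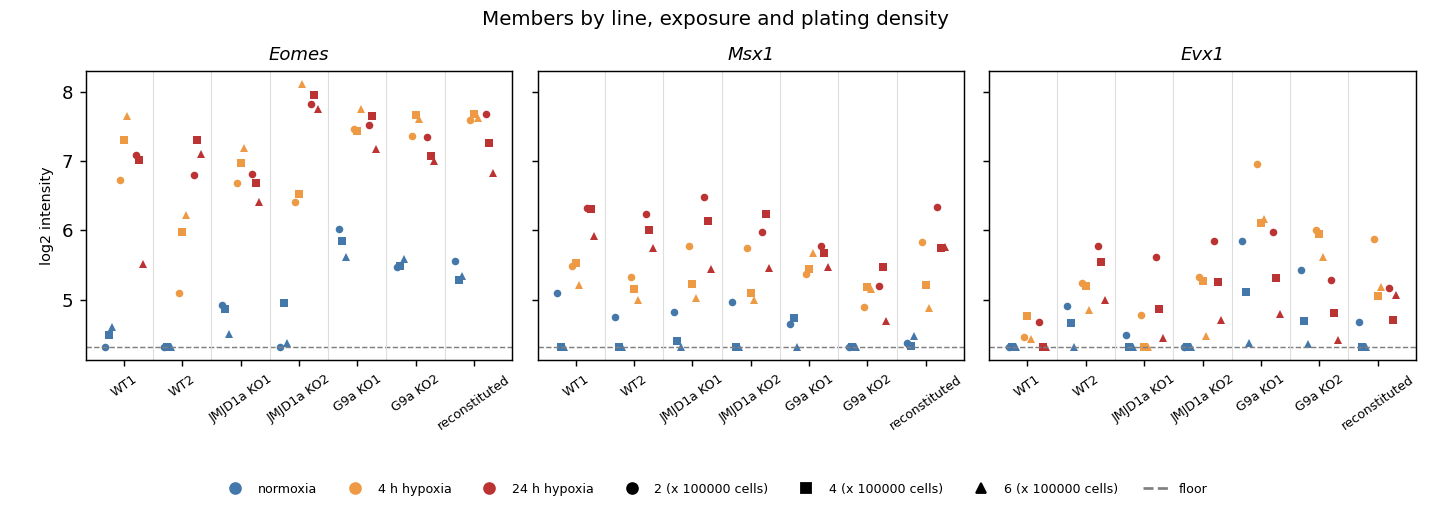
Log2 intensity of Eomes, Msx1 and Evx1 (y axis) in every culture of the 7 lines (x axis), coloured by exposure and shaped by plating density in units of 100000 cells; the dashed line is the floor of 4.32. Eomes and Msx1 points in hypoxia lie above those in normoxia of the same line, with Msx1 further up at 24 h than at 4 h in most lines, and Evx1 is highest in the G9a knockout lines at 4 h.

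Msx1 rose at 4 h and at 24 h in all 4 genotypes, and further between these times in 3 of the 4. Wild-type normoxia cultures were at 4.32, 4.32 and 5.10 (lowest, median and highest, 4 of 6 at the floor), those at 4 h at 4.99, 5.27 and 5.53, and those at 24 h at 5.75, 6.12 and 6.32. The 24 h cultures overlapped with neither of the other exposures. The rise was 0.76 ± 0.13 at 4 h (adjusted p = 8.9e-06) and 1.57 ± 0.13 at 24 h (adjusted p = 1.22e-13), and the 24 h cultures were 0.80 ± 0.13 above the 4 h cultures (adjusted p = 3.82e-06). WT1 and WT2 gave 0.83 ± 0.18 and 0.69 ± 0.18 at 4 h, and 1.60 ± 0.18 and 1.53 ± 0.18 at 24 h.

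In JMJD1a knockout cells Msx1 was at 4.32, 4.36 and 4.97 in normoxia, 5.00, 5.16 and 5.77 at 4 h and 5.44, 6.05 and 6.48 at 24 h (lowest, median and highest of 6). G9a knockout cultures were at 4.32, 4.32 and 4.74, then 4.90, 5.28 and 5.68, then 4.69, 5.47 and 5.77. The reconstituted cultures were at 4.33, 4.38 and 4.47, then 4.88, 5.21 and 5.83, then 5.75, 5.76 and 6.34. Apart from 1 G9a knockout culture at 24 h, which lay within the normoxia range, every hypoxia culture of these 3 genotypes lay above the normoxia cultures of its genotype.

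The 24 h rise in Msx1 was 1.42 ± 0.13 in JMJD1a knockout, 0.93 ± 0.13 in G9a knockout and 1.55 ± 0.18 in reconstituted cells, and the 4 h rise 0.78 ± 0.13, 0.84 ± 0.13 and 0.91 ± 0.18. All passed the test, with adjusted p of 0.000101 or lower. From 4 h to 24 h Msx1 rose further by 0.64 ± 0.13 in JMJD1a knockout and by 0.64 ± 0.18 in reconstituted cells. The G9a knockout value between these times was 0.09 ± 0.13 and did not pass (adjusted p = 0.661). With array set as a term, the G9a knockout values were 0.57 at 4 h and 0.58 at 24 h, the reconstituted 4 h value was 0.60, and none of these 3 passed. Within single sets Msx1 was higher in 6 of 6 lines at 4 h, by 0.69 to 0.88, and in 3 of 3 at 24 h, by 1.48 to 1.77. The JMJD1a knockout value between 4 h and 24 h was 0.65 with that term and did not pass. By mean, the 4 groups at 24 h came first, then the 4 at 4 h, then the 4 in normoxia, and the gap between the last 4 h group and the first normoxia group was 0.76. The last 24 h group (G9a knockout, 5.38 ± 0.39, SD, n = 6) and the first 4 h group (JMJD1a knockout, 5.31 ± 0.35, SD, n = 6) overlapped. Their means differed by 0.07, less than either SD.

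Evx1 had its largest rise at 4 h in G9a knockout cells, and it was lower again at 24 h. Its G9a knockout values were 4.37, 4.90 and 5.85 in normoxia (lowest, median and highest of 6), 5.62, 6.05 and 6.96 at 4 h and 4.41, 5.05 and 5.98 at 24 h. The 4 h cultures were mostly above both other exposures, with some overlap. The 4 h rise was 1.16 ± 0.14 (adjusted p = 7.51e-09), the fall from 4 h to 24 h was -1.04 ± 0.14 (adjusted p = 9.76e-08), and the 24 h value of 0.13 ± 0.14 above normoxia did not pass.

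In JMJD1a knockout cells 5 of 6 normoxia cultures were at the floor for Evx1 (highest 4.49), and the values were 4.32, 4.63 and 5.33 at 4 h and 4.45, 5.06 and 5.85 at 24 h. It rose there by 0.40 ± 0.14 at 4 h (adjusted p = 0.0287), by 0.77 ± 0.14 at 24 h (adjusted p = 1.7e-05) and by 0.37 ± 0.14 between the 2 times (adjusted p = 0.0379). The 4 h call rested on JMJD1a KO2, without which the value was 0.10 and did not pass, and the rise between the times did not pass without either knockout line. Reconstituted cultures were at 4.32, 4.32 and 4.69 in normoxia, 5.05, 5.19 and 5.88 at 4 h and 4.71, 5.07 and 5.17 at 24 h, with no overlap between hypoxia and normoxia. These rises were 0.93 ± 0.20 (adjusted p = 0.000319) and 0.54 ± 0.20 (adjusted p = 0.0317).

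In wild-type cells Evx1 was at 4.32, 4.32 and 4.91 in normoxia, 4.43, 4.81 and 5.24 at 4 h and 4.32, 4.84 and 5.77 at 24 h, and these ranges overlapped. The 24 h rise of 0.46 ± 0.14 passed (adjusted p = 0.00854) and the 4 h value of 0.35 ± 0.14 did not. The call rested on WT2, where the 24 h difference was 0.81 ± 0.20, against 0.12 ± 0.20 in WT1, and without WT2 the value was 0.13 and did not pass. With array set as a term, the Evx1 difference was no longer called in wild-type cells at 24 h (0.33), in JMJD1a knockout cells at 24 h (0.89) or in reconstituted cells at 4 h (0.74) and 24 h (0.35).

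Counted over the 9 members in either direction, 5 were called in wild-type at 4 h and 4 at 24 h, all higher. At the same threshold of adjusted p under 0.05, 27.4% and 36.9% of all 8740 genes were called in those comparisons. JMJD1a knockout cells had 3 called at 4 h and 3 at 24 h, all higher, against 30.4% and 50% of all genes. Of the 9 in G9a knockout cells, 4 were called at 4 h (3 higher and 1 lower) and 4 at 24 h (2 and 2), against 33.8% and 45.9%. In reconstituted cells 4 were called at 4 h and 3 at 24 h, all higher, against 37.4% and 39.1%. With 9 members, some chosen by the filter (Gsc in G9a knockout and Cdx2 in reconstituted cells), nothing is read from these counts about the members as a group.

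Between 24 h and 4 h, 2 members were called in wild-type (Msx1 higher, Lmo2 lower), where 26.5% of all genes were. JMJD1a knockout cells gave 3 (Msx1, Evx1 and Gata2, all higher), against 34.7%. G9a knockout cells gave 2 (Evx1 and Lmo2, both lower), against 37.2%, and reconstituted cells 2 (Msx1 higher, Cdx2 lower), against 18.5%. Nothing is read from the Cdx2 call, since the reconstituted line at 4 h let Cdx2 pass the filter. The median log2 difference over the 9 members at 24 h against normoxia was 0.13 in wild-type, 0.22 in JMJD1a knockout, 0 in G9a knockout and 0.26 in reconstituted cells, where the median over all genes lay between -0.0029 and 0.0188. The comparisons of 4 h and of 24 h with normoxia share their normoxia cultures.

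**Figure D2:**
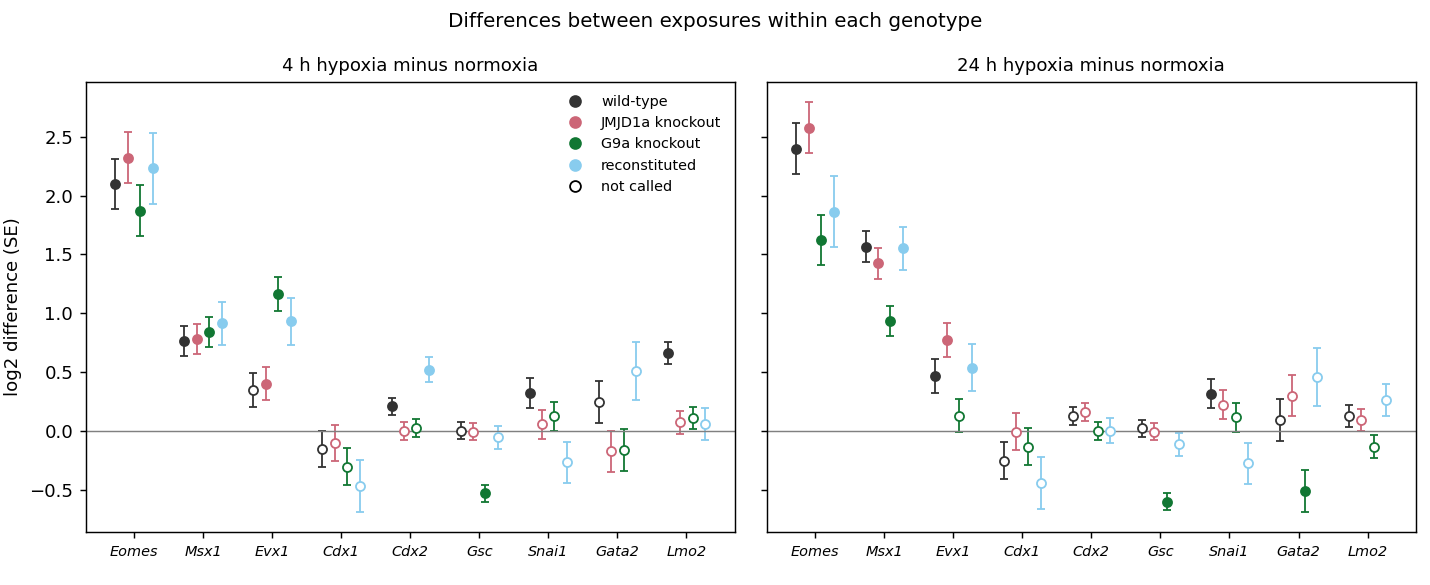
Log2 difference ± SE (y axis) of each of the 9 members (x axis) between hypoxia and normoxia, at 4 h on the left and 24 h on the right, for 4 genotypes by colour; filled points passed an adjusted p under 0.05 in limma over 8740 genes. Eomes lies between 1.87 and 2.32 at 4 h and between 1.62 and 2.58 at 24 h in the 4 genotypes, and Gsc in G9a knockout cells lies below 0 at both times.

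Gsc was detected almost only in cells that lacked G9a or had had it put back, and there it was highest in normoxia. All 6 wild-type cultures in normoxia and all 6 at 4 h were at the floor, and 5 of 6 were at 24 h (highest 4.44). The JMJD1a knockout lines had 17 of 18 cultures at the floor. G9a knockout cultures were at 4.70, 4.93 and 5.46 in normoxia (lowest, median and highest), 4.32, 4.42 and 4.69 at 4 h and 4.32, 4.35 and 4.59 at 24 h, with no overlap between normoxia and hypoxia. The difference was -0.53 ± 0.07 at 4 h and -0.61 ± 0.07 at 24 h, given without a test since G9a KO2 passed the filter in normoxia alone, and the floor limits how far it could be followed. The 3 reconstituted cultures in normoxia were at 4.32, 4.32 and 4.74.

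Snai1 was above the floor in all wild-type and knockout cultures and moved little. In wild-type cells it was at 4.87, 5.09 and 5.51 in normoxia, 5.21, 5.39 and 5.81 at 4 h and 5.24, 5.45 and 5.56 at 24 h, which overlap. The rises of 0.32 ± 0.12 at 4 h (adjusted p = 0.0489) and 0.31 ± 0.12 at 24 h (adjusted p = 0.0418) were near the threshold. At 24 h WT1 gave 0.47 ± 0.18 and WT2 0.16 ± 0.18, and the 24 h value was 0.22 and did not pass with array set as a term. The 4 h value did not pass without WT2 (0.33) or without WT1 (0.31). No Snai1 difference between exposures passed in the other genotypes.

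Lmo2 had a brief rise at 4 h in wild-type cells. Its values were 4.32, 4.52 and 4.72 in normoxia, 4.82, 5.04 and 5.64 at 4 h and 4.32, 4.59 and 5.32 at 24 h (lowest, median and highest of 6). All 4 h cultures lay above all normoxia cultures. The rise was 0.66 ± 0.10 (adjusted p = 4.04e-07), with 0.88 ± 0.13 in WT1 and 0.45 ± 0.13 in WT2, and the fall to 24 h was -0.53 ± 0.10 (adjusted p = 2.39e-05). The 4 h value relative to normoxia in JMJD1a knockout cells was 0.07 ± 0.10, in G9a knockout cells 0.11 ± 0.10 and in reconstituted cells 0.06 ± 0.13, and none passed.

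Gata2 was the member above the floor on the most arrays, and its spread within groups was wide. Wild-type cultures were at 4.77, 5.33 and 6.40 in normoxia, 5.24, 5.55 and 6.24 at 4 h and 4.96, 5.53 and 5.99 at 24 h, and no wild-type difference passed. In G9a knockout cells it was at 4.33, 5.39 and 6.84 in normoxia and 4.32, 5.18 and 5.79 at 24 h, a fall of -0.51 ± 0.18 (adjusted p = 0.0152) between groups that overlapped. The value was -0.01 with array set as a term, -0.61 without G9a KO1 and -0.41 without G9a KO2, and did not pass in any of these. In JMJD1a knockout cells Gata2 was at 5.45, 5.72 and 6.30 at 4 h and 6.07, 6.27 and 6.48 at 24 h, a rise of 0.47 ± 0.18 (adjusted p = 0.0325) that did not pass without JMJD1a KO2 (0.29).

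Cdx1 was at different levels in the wild-type lines. WT1 normoxia cultures were at 4.32, 4.32 and 4.70, and WT2 normoxia cultures at 5.04, 5.56 and 6.15, with no overlap between the lines. No Cdx1 difference between exposures passed in any genotype, and the values at 24 h were -0.25 ± 0.16 in wild-type and -0.45 ± 0.22 in reconstituted cells. By line, Cdx1 differed from normoxia by 0.33 ± 0.22 at 4 h and 0.07 ± 0.22 at 24 h in WT1, and by -0.64 ± 0.22 and -0.58 ± 0.22 in WT2, values of opposite sign. None of the 21 normoxia cultures had Cdx2 above the floor. At 4 h it was above the floor in all 3 reconstituted cultures, at 4.72, 4.79 and 5.01, at least 1.40-fold above normoxia, and at 24 h all 3 were at the floor again. Since this group let Cdx2 pass the filter, its values are a description and no test is given. In wild-type cells 3 of 6 cultures were above the floor at 4 h (highest 5.11), by mean at least 1.03-fold above normoxia. The fit, which takes the floor as the normoxia value, gave 0.21 ± 0.08 (adjusted p = 0.0379 in limma). This did not pass without WT2 (0.17).

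**Figure D3:**
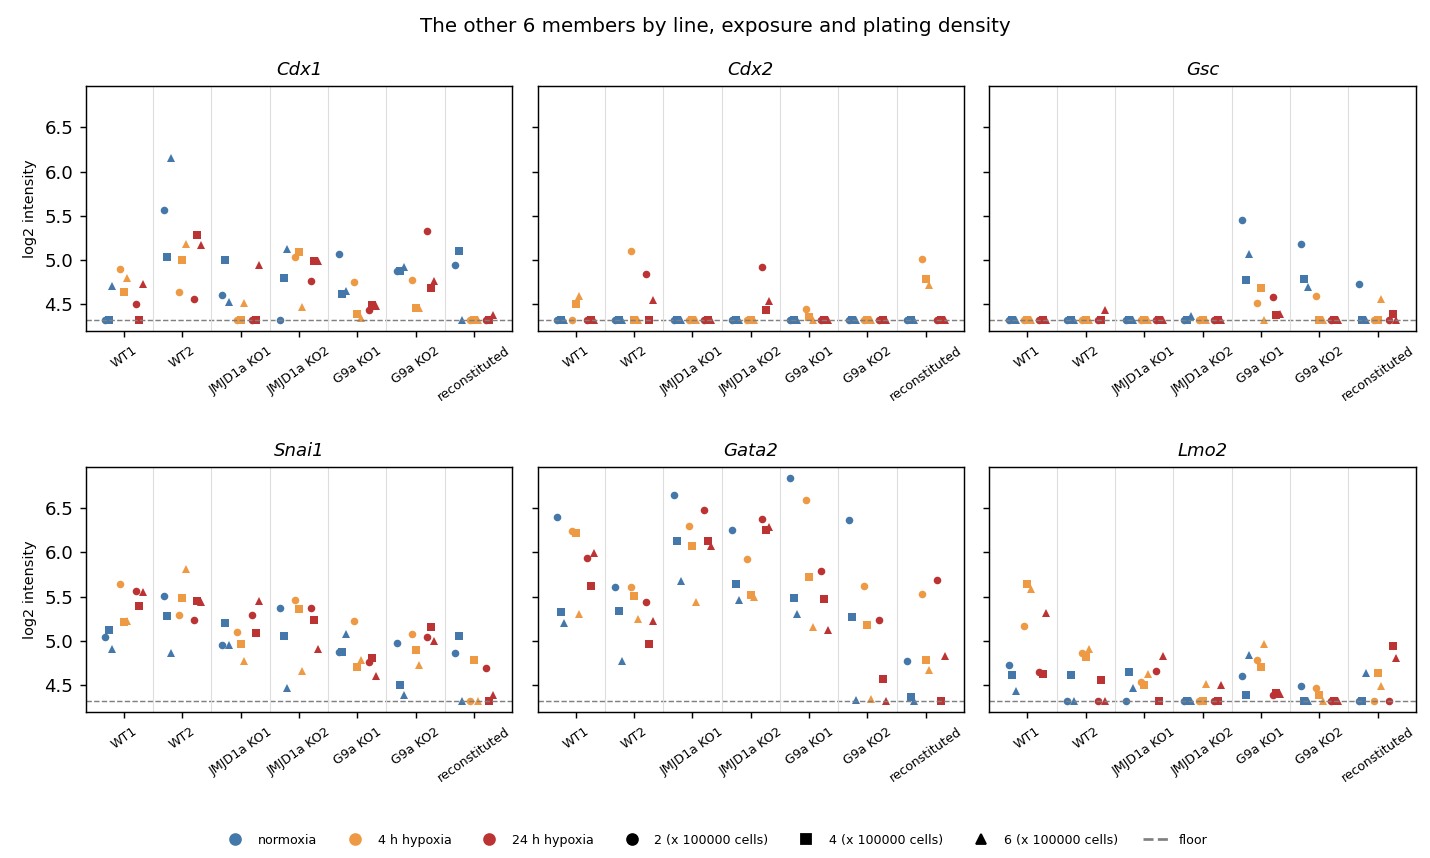
Log2 intensity of the other 6 members (y axis) in every culture of the 7 lines (x axis), coloured by exposure and shaped by plating density in units of 100000 cells; the dashed line is the floor of 4.32. Gsc has its highest points in the G9a knockout lines in normoxia, Cdx2 has no point above the floor in normoxia, and Gata2 is highest at the lowest density in most lines.

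Knockout and wild-type cells were compared on line means, 2 lines against 2, which asks whether the members' levels depend on either enzyme. In normoxia Eomes was higher in G9a knockout cells, whose lowest culture (5.48) lay above the highest wild-type culture (4.61), by 1.27 ± 0.15 (adjusted p = 0.0194). Gsc was at least 1.42-fold higher, a description with no test, since the G9a knockout lines alone let it pass the filter. Both were among the genes called (2 of 9 members), where 23.4% of all genes were, and nothing is read from the Gsc call. Without WT2 the Eomes difference was 1.21 and did not pass, nor did it without JMJD1a KO1 or KO2, which leaves fewer lines to estimate the spread. The median over all genes was -0.12 in this comparison, so the Eomes difference is slightly larger relative to it.

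At 4 h Evx1 was higher in G9a knockout than in wild-type cells, by 1.31 ± 0.33 (adjusted p = 0.0446), and all 6 of its cultures (5.62 or more) lay above the 6 wild-type cultures (5.24 or less). Snai1 was lower (-0.54 ± 0.11, adjusted p = 0.0269). The median over all genes was -0.14 here, so relative to it the Snai1 difference is smaller and the Evx1 difference larger. Evx1 and Snai1 were the 2 of 9 members called, against 34.3% of all genes. Neither passed without WT2 (1.59 for Evx1 and -0.46 for Snai1) or without any 1 of the 4 knockout lines, and Evx1 did not pass without WT1 (1.04). At 24 h 0 of 9 were called in limma (Msx1 at -0.71 ± 0.21 with adjusted p = 0.0808, and Snai1 at -0.54 ± 0.15 with adjusted p = 0.0756, had unadjusted p of 0.0226 and 0.0183), against 7.29% of all genes. In that comparison 3760 of 8740 genes had an unadjusted p under 0.05, and the median over all genes was -0.13. Since no array set held both genotypes, a set effect and a G9a effect cannot be told apart here.

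In JMJD1a knockout cells 0 of 9 members were called against wild-type in normoxia, at 4 h or at 24 h, where 0.0114% of all genes were called at each exposure. Eomes was 0.26 ± 0.15 above wild-type in normoxia, 0.49 ± 0.50 at 4 h and 0.44 ± 0.47 at 24 h. Msx1 differed by 0.01 ± 0.11, 0.03 ± 0.18 and -0.14 ± 0.21 in the same order. At an unadjusted p under 0.05, 0 members passed in normoxia, 2 at 4 h (Cdx2 and Snai1) and 0 at 24 h. Of all 8740 genes, 379, 502 and 542 passed at that threshold in the same order. With cultures in place of lines as the replicates, Gata2 was called in normoxia and at 24 h, and Lmo2 and Snai1 at 4 h.

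The response to hypoxia itself was compared between knockout and wild-type lines, and 0 of 9 members were called in limma in any of the 4 comparisons. The share of all genes called was 0% for JMJD1a knockout at 24 h, 0% for G9a knockout at 24 h, 0% for JMJD1a knockout at 4 h and 0.0801% for G9a knockout at 4 h. At an unadjusted p under 0.05 these comparisons gave 0, 3, 3 and 4 members in the same order. Of all 8740 genes, 228, 553, 415 and 1085 passed at that threshold. The G9a knockout counts include Gsc, from which nothing is read, since the G9a knockout lines alone let it pass the filter. The Eomes rise at 24 h differed from wild-type by 0.18 ± 0.53 in JMJD1a knockout and by -0.78 ± 0.53 in G9a knockout cells. For Msx1 the G9a knockout rise was -0.63 ± 0.14 relative to wild-type at 24 h (unadjusted p = 0.00876, adjusted p = 0.445) and 0.08 ± 0.09 at 4 h. Evx1 gave 0.82 ± 0.23 at 4 h (adjusted p = 0.302). With cultures as the replicates, Msx1 was called at 24 h and Evx1 and Lmo2 at 4 h in G9a knockout cells, which treats cultures of 1 line as independent. Gsc was called at both times as well, and nothing is read from this for the same reason of the filter.

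Reconstituted and parent (G9a KO1) cultures were set against each other to ask which values move back when G9a is restored. This sets 1 line of 3 cultures against 1 line of 3, on different array sets, so line, set and G9a cannot be told apart. In normoxia Gata2 was at 4.32, 4.37 and 4.77 in reconstituted and 5.30, 5.49 and 6.84 in parent cultures, a difference of -1.39 ± 0.25 (adjusted p = 2.24e-05). Evx1 differed by -0.67 ± 0.20 (adjusted p = 0.0103) and Gsc by -0.64 ± 0.10, a description since the parent line let Gsc pass the filter. These were the 3 of 9 called, where 28.2% of all genes were. Eomes was at 5.29, 5.34 and 5.55 in reconstituted and 5.61, 5.85 and 6.02 in parent cultures, which do not overlap, and its difference did not pass (-0.43 ± 0.30, adjusted p = 0.334).

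At 4 h 5 of 9 members were called between the reconstituted line and its parent, against 54.4% of all genes. Evx1 differed by -1.03 ± 0.20, Gata2 by -0.82 ± 0.25, Snai1 by -0.43 ± 0.18 and Lmo2 by -0.33 ± 0.13, and Cdx2 was higher by 0.47 ± 0.11, a description since this group let it pass the filter. At 24 h 0 of 9 were called in limma, against 55.5% of all genes. At an unadjusted p under 0.05, 2 members passed, against 5250 of 8740 genes. Without scaling between arrays, 4 were called at 24 h, namely Evx1, Gata2, Gsc and Snai1. Nothing is read from the Gsc call, since the parent line let Gsc pass the filter.

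Plating density moved 4 members down and 1 up. Gata2 fell most as density rose: in normoxia its 7 lines were at 4.77, 6.36 and 6.84 at the lowest density (lowest, median and highest) and at 4.32, 5.20 and 5.68 at the highest. Fitted over the 21 combinations of line and exposure, the difference between 6 and 2 times 100000 cells was -0.81 ± 0.09 for Gata2 (adjusted p = 5.24e-09), with a lower value at the highest density in 20 of 21 combinations. Evx1 changed by -0.61 ± 0.08 (adjusted p = 2.72e-08), with 19 lower, 0 higher and 2 tied at the floor. Msx1 changed by -0.43 ± 0.07 (17 of 21 lower) and Snai1 by -0.24 ± 0.07 (15 of 21 lower), and Lmo2 rose by 0.13 ± 0.05 (14 of 21 higher). Of all genes, 32.7% were called for density. Lmo2 was not called with array set as a term (0.09), nor Snai1 without JMJD1a KO2 (-0.16), and without the lowest density only Evx1 was called.

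Within single exposures, 5 of 9 members were called for density in normoxia (Evx1, Gata2, Gsc, Msx1 and Snai1, all with a fitted value lower at high density), where 19.1% of all genes were. The Gsc call was near the threshold (adjusted p = 0.0472 in limma). Between the lowest and highest density Gsc was lower in 3 of 7 lines, higher in 1 and tied at the floor in 3. At 4 h 4 were called, against 22.8%, and at 24 h 4, against 16.5%. Evx1, Gata2 and Msx1 were lower at high density at both times. For Gata2 the difference was -1.12 ± 0.15 in normoxia, -0.88 ± 0.15 at 4 h and -0.44 ± 0.15 at 24 h, and the change between normoxia and 24 h did not pass (0.68 ± 0.21, adjusted p = 0.0708). Each value rests on a line through 3 densities, and without the lowest density 0 members were called at any single exposure.

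Eomes changed direction with density between the 2 lengths of hypoxia. At 4 h the 7 lines were at 5.10, 6.72 and 7.59 at the lowest density (lowest, median and highest) and at 6.23, 7.62 and 8.11 at the highest, and all 7 were higher at the highest density. At 24 h they were at 6.79, 7.34 and 7.83 at the lowest and 5.51, 7.00 and 7.75 at the highest density, lower in 6 of 7. The fitted difference between the highest and lowest density was 0.69 ± 0.16 at 4 h (adjusted p = 0.00145), -0.47 ± 0.16 at 24 h (adjusted p = 0.0358) and -0.08 ± 0.16 in normoxia. The difference between 24 h and 4 h in this slope was -1.15 ± 0.22 (adjusted p = 0.00117), and that between 4 h and normoxia 0.77 ± 0.22 (adjusted p = 0.0303). Eomes was the only member called in those 2 tests, where 6.02% and 5.98% of all genes were. Between 24 h and normoxia 0 members were called in limma, where 3.04% of all genes were. At an unadjusted p under 0.05, 1 member passed there, against 1244 of 8740 genes.

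The slope test of Eomes was added after the values had been seen. In WT1 the 24 h culture at the highest density (5.51) was the only one of the 3 on another array set, and without WT1 the 24 h difference with density was -0.28 and did not pass. The difference in slope between 4 h and normoxia was not called without WT2 (0.70), JMJD1a KO1 (0.74), JMJD1a KO2 (0.62) or G9a KO1 (0.80). The difference in slope between 24 h and 4 h was called with any 1 line left out, but not without the lowest density (-1.64) or the highest (-0.66).

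**Figure D4:**
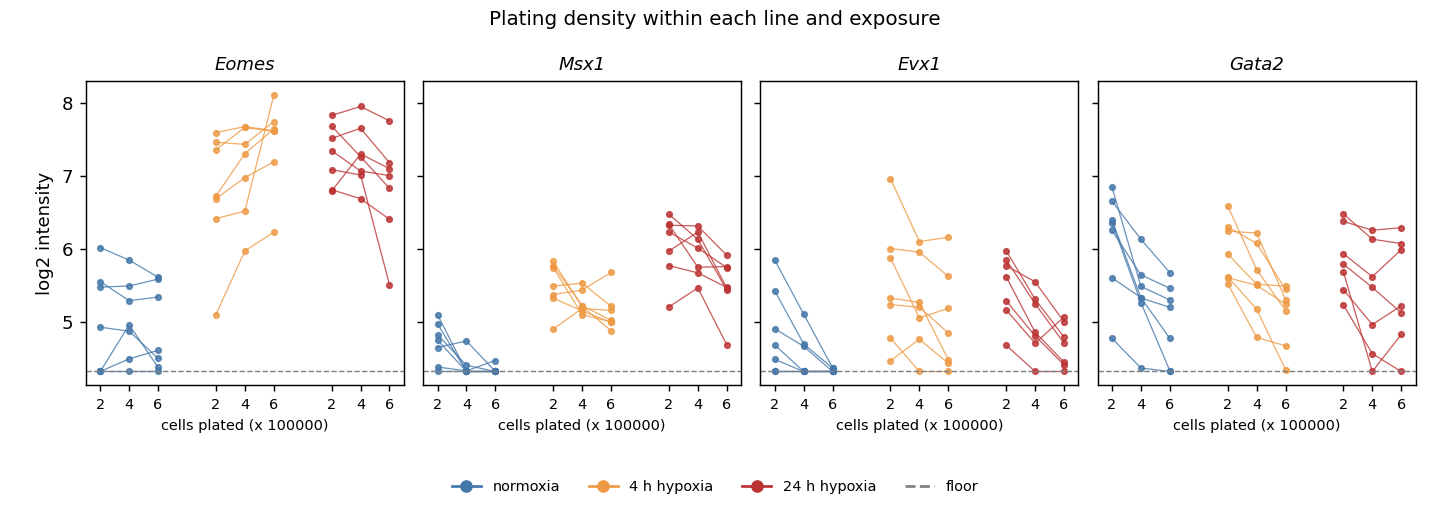
Log2 intensity of Eomes, Msx1, Evx1 and Gata2 (y axis) at 3 plating densities (x axis, in units of 100000 cells), with 1 line drawn per cell line and colour for exposure; the dashed line is the floor of 4.32. Gata2 and Evx1 slope down in nearly all lines, and Eomes slopes up in all 7 lines at 4 h and down in 6 of 7 at 24 h.

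Other genes of the same steps were read from lists of known genes. Of 29 further primitive streak and mesoderm genes, 25 were on the array under the listed symbols, and 13 of these, including Mixl1, Mesp1, Mesp2, Lhx1 and Kdr, were at the floor on all 63 arrays. Of the 7 tested, 2 rose and 2 fell in wild-type cells at 24 h, with a median of 0.01 log2 against 0 over all genes. In that comparison 36.9% of all genes were called. Sp5, a direct Wnt target, rose by 1.61 ± 0.17, the repressor Zeb1 changed by -0.76 ± 0.13 and the ETS factor Etv2 changed by -0.49 ± 0.12. Sp5 also rose at 24 h in JMJD1a knockout, G9a knockout and reconstituted cells, by 1.54 ± 0.17, 0.83 ± 0.17 and 1.64 ± 0.24.

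Of 30 tested genes of Nodal, BMP, Wnt and FGF signalling, 12 rose and 2 fell in wild-type cells at 24 h, with a median of 0.12 against 0 over all genes, where 36.9% of all genes were called. Lef1, a Wnt effector, rose by 2.20 ± 0.14, Inhbb, an activin subunit gene, changed by -1.49 ± 0.16, and Fgf5, a marker of primed epiblast, rose by 1.32 ± 0.12. Of the same 30, 17 rose and 5 fell in JMJD1a knockout cells at 24 h, 14 and 5 in G9a knockout and 12 and 4 in reconstituted cells, where 50%, 45.9% and 39.1% of all genes were called in turn. Of 11 tested pluripotency genes, 7 fell and 1 rose in wild-type cells at 24 h (median -0.39). Tbx3, a factor of naive pluripotency, changed by -1.43 ± 0.12, Dppa3 by -0.82 ± 0.07 and Klf4 by -0.81 ± 0.13.

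Eomes and Cdx2 are also trophectoderm genes, and markers of that and other cell types were read in the same comparison. There 36.9% of all genes were called. Of 11 tested trophectoderm genes, 2 rose and 2 fell in wild-type cells at 24 h (median 0.08), which is near that share. The keratin Krt19 rose by 2.19 ± 0.15 and Krt8 by 0.58 ± 0.10, while Tfap2c changed by -0.28 ± 0.09. The summed intensity above the floor of all 14 was 2305 to 3980 in wild-type normoxia and 2684 to 4486 at 24 h. Over all exposures the sum was 2305 to 3622 in WT1 and 3889 to 4486 in WT2, so these ranges hold a difference between lines. Elf5, Hand1 and Fgfr2 were at the floor on all 63 arrays. Of 3 tested endoderm genes, 1 rose (Sox7, by 0.56 ± 0.11), with Foxa2, Ttr and Cer1 at the floor throughout and a sum over 8 genes of at most 64.5 in any culture. Of 2 tested blood and endothelium genes, 1 fell (Ldb1, -0.28 ± 0.06), and 9 of 12, including Tal1, Gata1 and Runx1, never rose above the floor. Of 3 tested fibroblast genes, 1 rose (Thy1, by 0.42 ± 0.14), and Col3a1, Postn, Lum and Dcn never rose above the floor. The part of these cell types in the members' values was not tested.

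The genes most like each member were ranked by Pearson's r over the 21 means of line and exposure after subtraction of each line's own mean, as a description over points that share cultures and arrays. Closest to Eomes were Pgm1 (r = 0.98), a phosphoglucomutase, Hsp90b1 (0.97), a chaperone of the endoplasmic reticulum, and Egln3 (0.96), a HIF prolyl hydroxylase. Msx1 was closest to the glycolytic Tpi1 (0.97), the transferrin receptor Tfrc (0.97) and Armh4 (0.97). Evx1 was closest to Ccn2 (0.93), Lor (0.92) and Flrt3 (0.90), and Gsc to Nemp1 (0.99), Zfp870 (0.98) and Pkd2l1 (0.98). The highest r was 0.75 for Cdx1 (Mfap5), 0.86 for Cdx2 (Wnt5a), 0.77 for Snai1 (Sox8), 0.78 for Gata2 (Ugp2) and 0.81 for Lmo2 (Plac1). Gsc was above the floor on 18 of 63 arrays and Cdx2 on 13, so their r values rest on few means above the floor. For Gsc these were mainly the normoxia means of G9a KO1 (5.10) and G9a KO2 (4.89).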

How the data were processed

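Illumina mouse BeadChip intensities of 63 cultures were taken from the table the authors deposited with the series. Per the submitters' processing notes BeadStudio was used. The sources used here do not give its version or steps. The deposited intensity values have a lowest value of 20, cover 25697 probes, and were used on the log2 scale after quantile normalization between arrays, so that a deposited intensity of 20 became a log2 value of 4.32. A further 126 columns of another table could not be matched to a sample and were not used. A probe was kept if some line had its 3 cultures of 1 exposure all above the floor, and the kept probe with the highest mean stood for its gene, which left 8740 genes. Symbols came from the array annotation, updated through its Entrez identifiers. Of 25697 probes, 23978 had a symbol and 1719 had none, and a probe with several was not used.

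Tests used limma 3.58.1 in R 4.3.3, with Benjamini-Hochberg adjustment over all 8740 genes and a threshold of 0.05. Exposures, the reconstituted line and density were fitted over all 63 cultures, with a mean for each line and exposure and a density slope, and G9a and JMJD1a knockouts were compared with wild-type on line means. Precision is limited by the number of arrays, and dim probes near the floor have compressed differences. Alternatives were a floor of 64, no filter, median or no scaling, array set as a block, no density term, other variance settings, each probe on its own, cultures as replicates and leaving out each line or density. Scripts were tested on simulated data.

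The members and gene lists were chosen with earlier results of these data known. Genes outside the members were named by rank of absolute difference in wild-type cells at 24 h, up to 3 for each list. Cultures of the same plating density were checked for shared deviations (median r 0.236, lowest -0.161, highest 0.448, over 63 pairs). The labels give them that density in common and name no other link between them.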

Additional observations from a re-analysis of the deposited data

Results flagged for a closer look

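In 81 groups of 6 cultures, 10 had 1 culture that stood apart from the others by Dixon's test, and chance gives about 1 group in 20. The lowest Eomes value of wild-type cells at 24 h was 5.51 in WT1 at the highest density, where the next was 6.79, and that culture was on another array set than the other WT1 cultures at 24 h. The highest Lmo2 value of the same group, 5.32, came from the same culture, and the next was 4.65.

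Several of the others lie just above the floor, where a group of floor values sets any brighter culture apart. Evx1 was at 4.49 in 1 JMJD1a KO1 culture in normoxia, with the other 5 at the floor. Gsc was at 4.44 in 1 WT2 culture at 24 h and at 4.37 in 1 JMJD1a KO2 culture in normoxia, again with 5 at the floor, and at 4.59 in G9a KO1 at 24 h, where the next was 4.40. Cdx2 stood apart at 5.11 in WT2 at 4 h, at 4.93 in JMJD1a KO2 at 24 h and at 4.45 in G9a KO1 at 4 h, each at the lowest density. Cdx1 was at 5.33 in G9a KO2 at 24 h and the lowest density, where the next was 4.77. The causes were not tested.

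The difference of Eomes with density was not the same at the 3 exposures. Its slope between the lowest and highest density was higher at 4 h than in normoxia by 0.77 ± 0.22 and lower at 24 h than at 4 h (-1.15 ± 0.22), by a test of the difference itself.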

How the results depend on the processing

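Of the alternatives run over 71 results, 1058 kept the direction and side of the threshold, 276 kept the direction and did not pass, and 2 turned sign, both without the lowest density: Gsc with density in normoxia (0.073) and Gata2 with density at 24 h (0.15). Leaving out 1 line or density gave -0.43 to 0.073 for this Gsc value and -1.03 to 0.15 for this Gata2 value. Eomes kept its calls in all 8 comparisons of hypoxia with normoxia with array set as a block. Counts of members called are given below. A floor of 64, which removes most values of these dim genes, left 2 at 24 h and 1 at 4 h in wild-type, 1 at 4 h in JMJD1a knockout, 1 and 2 in G9a knockout, 1 and 1 in reconstituted cells, 1, 1, 1 and 0 between 24 h and 4 h in those genotypes, 0 in normoxia and 1 at 4 h for the reconstituted line against its parent, 0 and 0 for G9a knockout against wild-type in normoxia and at 4 h, 1 for density, 1, 1 and 2 at single exposures, and 0, 1 and 2 for its slope differences. Array set as a block gave 2 in wild-type and 2 in G9a knockout at 24 h, 2 in reconstituted cells at 4 h, and 0 and 1 between 24 h and 4 h in JMJD1a and G9a knockout. No density term gave 2 in wild-type at 24 h, 1, 1 and 1 between the times in JMJD1a knockout, G9a knockout and reconstituted cells, and 3 against the parent at 4 h. No filter gave 3 in wild-type at 4 h, 1 and 1 between the times in the knockouts, 3 against the parent at 4 h, 0 and 0 for G9a knockout in normoxia and at 4 h, 3 and 2 for density in normoxia and at 24 h, and 0 for the 4 h slope difference. No scaling gave 4 against the parent at 24 h and 1 for G9a knockout at 4 h, and median scaling gave 4, 1 and 1 between the times in G9a knockout. Cultures as replicates gave 1, 2 and 1 for JMJD1a knockout and 4, 5 and 5 for G9a knockout against wild-type, and 2 and 3 for its response at 24 h and 4 h. The highest against the lowest density gave 2 in normoxia, 2 at 24 h and 0 for the 4 h slope difference, and without the array with the higher floor (added after seeing the data, as were the slope tests) G9a knockout gave 1 between the times and 1 against wild-type at 4 h. Leaving out 1 line or density gave 2 to 4 in wild-type at 24 h, 3 to 5 at 4 h and 2 to 3 between the times, 3 to 4, 2 to 3 and 0 to 4 in JMJD1a knockout, 3 to 4, 4 to 4 and 1 to 2 in G9a knockout, 2 to 4, 4 to 5 and 1 to 2 in reconstituted cells, 2 to 3, 3 to 5 and 0 to 2 against the parent, 1 to 5 for density, 0 to 4 at each exposure, 0 to 1 for each slope difference, 0 to 3 for G9a knockout in normoxia and at 4 h and 0 to 1 for JMJD1a knockout at 4 h. Line and density as a replicate block called Evx1 as a sixth member in wild-type at 4 h (6 called) and changed no other call of a member between exposures. Keeping only genes above the floor on all arrays left no member and gave no value. The causes of lost calls were not tested.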
